A study of Homo sapiens with 2 samples.

Results

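Mitochondrial complex I genes were followed on 2 Affymetrix arrays of SW480, a human cell line established from a colorectal adenocarcinoma. The members are the genes whose platform symbol begins with NDUFA, NDUFB, NDUFC, NDUFS or NDUFV, assembly factors of the NDUFAF series included, and is not that of a numbered pseudogene. Only probe sets annotated with a single symbol were taken. The rule took 46 probe sets for 42 genes, out of 18417 genes with a symbol of their own. Of the 42, 6 encode core subunits, 28 accessory subunits and 7 assembly factors, and NDUFV1-DT is a divergent non-coding transcript. NDUFA4 and NDUFA4L2 stand in the platform table under the newer symbols COXFA4 and COXFA4L2, which the rule does not take, and their products are placed at complex IV.

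The TFAP2E-labelled cells were stable SW480 transfectants carrying the TFAP2E coding sequence in the pTarget mammalian expression vector, and the control cells were SW480 transfectants with the empty vector. Both were selected with Geneticin for weeks, and the submitters then picked individual clones and examined their TFAP2E expression. The labels give 1 array for each, and do not say whether its RNA came from 1 clone or from several. Clone and transgene therefore cannot be told apart. No test, error or p-value can be given for any gene, since there is no replicate array.

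TFAP2E encodes AP-2 epsilon, a DNA-binding factor of the AP-2 family. Its value was 6.81 in TFAP2E-labelled cells and 6.77 in empty vector cells, a log2 difference of 0.04, so that the values do not show the introduced gene and the directions below rest on the labels. All values are log2 values per probe set from RMA, which as a rule brings arrays close to a common distribution of intensities. In these values the median was 5.54 for TFAP2E-labelled cells and 5.56 for empty vector cells, with gaps of up to 0.158 between values of equal rank. A gene was called measured when the higher of its values reached 5.55, the median of all probe sets. Differences are log2 values of TFAP2E-labelled cells minus those of empty vector cells throughout. Over the 11548 measured genes they had a median of 0.04 and a standard deviation of 0.219. Epithelial markers were present, with EPCAM at 11.1 against 11.2 and KRT8 at 12.1 against 12.3, and 3 of 10 colorectal markers (KRT20, CEACAM5 and LGR5) were below 5.55. The markers did not all stay level. VIL1 (villin) read 6.22 in TFAP2E-labelled cells and 4.94 in empty vector cells, where it was dim (1.28), and CDH1 (E-cadherin) read 6.38 against 7.08 (-0.71). Both differences exceed those of all complex I members. All 4 endothelial markers, 4 of 6 fibroblast markers and 2 of 4 leukocyte markers on the array lay below it, the defining leukocyte marker PTPRC among them, at 2.74 on both arrays. CD68, a macrophage marker also found in other cells, read 6.60 against 6.02. CD14, the other measured leukocyte marker, went the other way, at 5.46 against 5.66 (-0.19). The part of VIL1, CDH1, CD68 and CD14 in the results was not tested. The RNA was of bulk cells, so that fewer cells of a kind and less RNA per cell cannot be told apart.

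Complex I, the NADH:ubiquinone oxidoreductase, is the entry point of the mitochondrial respiratory chain. It passes electrons from NADH through a flavin and a row of iron-sulfur clusters to ubiquinone, and pumps protons across the inner membrane. Core subunits, shared with bacteria, carry out this chemistry. Some of them are encoded in the nucleus and the others in mitochondrial DNA. Accessory subunits surround the core and stabilise it. Assembly factors help build the enzyme from modules and are absent from the finished complex. The N module takes up NADH, the Q module reduces ubiquinone, and the membrane arm, in a proximal and a distal part, pumps protons. Genes encoded in mitochondrial DNA were not analysed here.

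The promoters of 6 members are shown because they include the highest and the lowest genes of the set and show which known regulatory motifs were found there. NDUFA5 and NDUFB8 were the highest of the subunit genes with a promoter in the table, and NDUFB1 and NDUFB3 the lowest. NDUFAF4, the highest member of all, and NDUFA3, the highest subunit gene with a match to an NRF1, ETS or YY1 motif, were added after their values were seen. Each sequence runs 5′ to 3′ along the gene, from 250 bases before to 50 bases after the start that RefSeq gives it (GRCh38.p14). Capitals mark matches to the motifs described after the sequences, on either strand.

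NDUFA5, chr7:123601602-123601901, minus strand: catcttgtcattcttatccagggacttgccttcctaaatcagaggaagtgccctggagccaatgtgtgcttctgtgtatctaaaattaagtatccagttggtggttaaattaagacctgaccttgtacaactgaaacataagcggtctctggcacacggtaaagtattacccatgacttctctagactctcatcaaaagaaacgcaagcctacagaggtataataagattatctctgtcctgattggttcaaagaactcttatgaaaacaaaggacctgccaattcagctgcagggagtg
NDUFB8, chr10:100529874-100530173, minus strand: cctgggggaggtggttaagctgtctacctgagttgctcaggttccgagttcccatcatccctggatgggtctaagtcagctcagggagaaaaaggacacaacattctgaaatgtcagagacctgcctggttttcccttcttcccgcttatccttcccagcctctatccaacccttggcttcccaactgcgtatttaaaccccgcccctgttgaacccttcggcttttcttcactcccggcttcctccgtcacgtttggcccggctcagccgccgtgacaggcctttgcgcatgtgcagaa
NDUFB1, chr14:92121657-92121956, minus strand: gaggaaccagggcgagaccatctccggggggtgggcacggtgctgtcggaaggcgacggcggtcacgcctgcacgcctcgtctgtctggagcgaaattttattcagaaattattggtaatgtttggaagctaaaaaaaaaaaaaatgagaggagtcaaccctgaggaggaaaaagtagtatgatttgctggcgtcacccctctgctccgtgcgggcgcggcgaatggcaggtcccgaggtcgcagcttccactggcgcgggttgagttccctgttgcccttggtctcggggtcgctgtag
NDUFB3, chr2:201071751-201072050, plus strand: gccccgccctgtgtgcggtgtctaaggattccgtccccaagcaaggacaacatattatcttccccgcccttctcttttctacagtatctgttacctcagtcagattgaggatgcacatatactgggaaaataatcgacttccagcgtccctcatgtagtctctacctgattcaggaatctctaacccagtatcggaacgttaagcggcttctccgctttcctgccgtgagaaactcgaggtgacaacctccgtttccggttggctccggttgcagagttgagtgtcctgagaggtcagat
NDUFAF4, chr6:96897842-96898141, minus strand: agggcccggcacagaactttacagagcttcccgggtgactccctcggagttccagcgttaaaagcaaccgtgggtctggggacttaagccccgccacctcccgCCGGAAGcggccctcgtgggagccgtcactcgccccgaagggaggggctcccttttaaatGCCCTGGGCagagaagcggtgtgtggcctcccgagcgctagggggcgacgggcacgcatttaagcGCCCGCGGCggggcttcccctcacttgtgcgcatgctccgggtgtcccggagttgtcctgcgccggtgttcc
NDUFA3, chr19:54102605-54102904, plus strand: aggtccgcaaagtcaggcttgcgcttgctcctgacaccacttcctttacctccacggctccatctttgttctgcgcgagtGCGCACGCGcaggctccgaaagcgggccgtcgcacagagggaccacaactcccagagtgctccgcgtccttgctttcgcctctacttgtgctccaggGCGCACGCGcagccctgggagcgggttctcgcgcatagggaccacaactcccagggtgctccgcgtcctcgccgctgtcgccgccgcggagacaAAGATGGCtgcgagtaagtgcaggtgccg

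The motifs were GCGCANGCG for NRF1 (nuclear respiratory factor 1, a regulator of respiratory chain genes), CCGGAAG for the ETS family (which includes GABPA), AAGATGGC for YY1 and GCCNNNGGC for the AP-2 family, each searched on both strands. Matches to different motifs overlapped in 0 of the 37 measured members found in the RefSeq promoter table. A single start was used for each gene, and any other start was not searched. At that start, the 4 promoters of NDUFA5, NDUFB8, NDUFB1 and NDUFB3 held no match to any of the motifs. The NDUFA3 promoter held 2 NRF1 matches and 1 YY1 match, and that of NDUFAF4 held 1 ETS match and 2 AP-2 matches.

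Among the 37 members, the NRF1 motif was present in 10 promoters (27.0%), against 14.8% of 9283 promoters of measured genes and 8.05% of all 27305 promoters of this length. The YY1 motif was present in 5 (13.5%), against 5.50% of measured and 3.03% of all promoters. The ETS motif was found in 6 (16.2%), a share that lay between the 19.4% of measured and the 10.7% of all promoters. For the AP-2 motif the share was 21.6% (8 members), below the 34.0% of measured promoters and close to the 23.0% of all promoters. Members with an AP-2 match had a median difference of 0.17 and the 29 without one a median of 0.16. With and without an NRF1 match the medians were 0.16 and 0.17, with and without an ETS match 0.15 and 0.17, and with and without a YY1 match 0.17 and 0.15. A match in this window is a string of letters and not a shown binding site. The median GC content was 61.3% in the members' promoters and 66.0% in those of measured genes, and NDUFA5, at 42.0%, lay well below both.

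As a group, complex I genes read slightly higher in TFAP2E-labelled cells. The median difference of the 40 measured members was 0.17, which is 1.12-fold, and lay 0.12 above the median of all measured genes. The members' middle 50% ran from 0.07 to 0.26, and 25.0% of all measured genes lay above their median. Of the 40, 32 (80.0%) were above 0 and 8 below, against 59.2% of all measured genes above 0 and 39.5% below. At a fixed size of 1.2-fold (0.26 on the log2 scale), 10 members (25.0%) read higher, against 12.8% of all measured genes. With the median of their chromosomal neighbours subtracted 5 members did, a count with no share of all genes computed the same way. None of the 40 read at least 1.2-fold lower, against 6.05% of all measured genes. No member reached 1.5-fold in either direction, where 0.892% of measured genes read higher and 0.606% lower, nor 2-fold, where 0.0866% read higher and 0.113% lower. At 1.1-fold 25 members read higher and 0 lower, against 30.7% and 16.2% of measured genes. NDUFAB1, at 0.27, was the last member inside the 1.2-fold size, and NDUFAF3, at 0.26, the first outside it.

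In place of replicates, genes with several probe sets show part of the measurement error. Over the 340 genes with exactly 2 distinct measured probe sets, the differences from the 2 probe sets lay a median of 0.08 apart, and the spread attributable to 1 probe set was 0.146 (SD on the log2 scale). The differences of the complex I members had an SD of 0.157. The spread of the members around their median was therefore about as large as that between probe sets of 1 gene, and the order of neighbouring members should not be read. Probe set error does not include variation between cultures or clones.

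**Figure D1:**
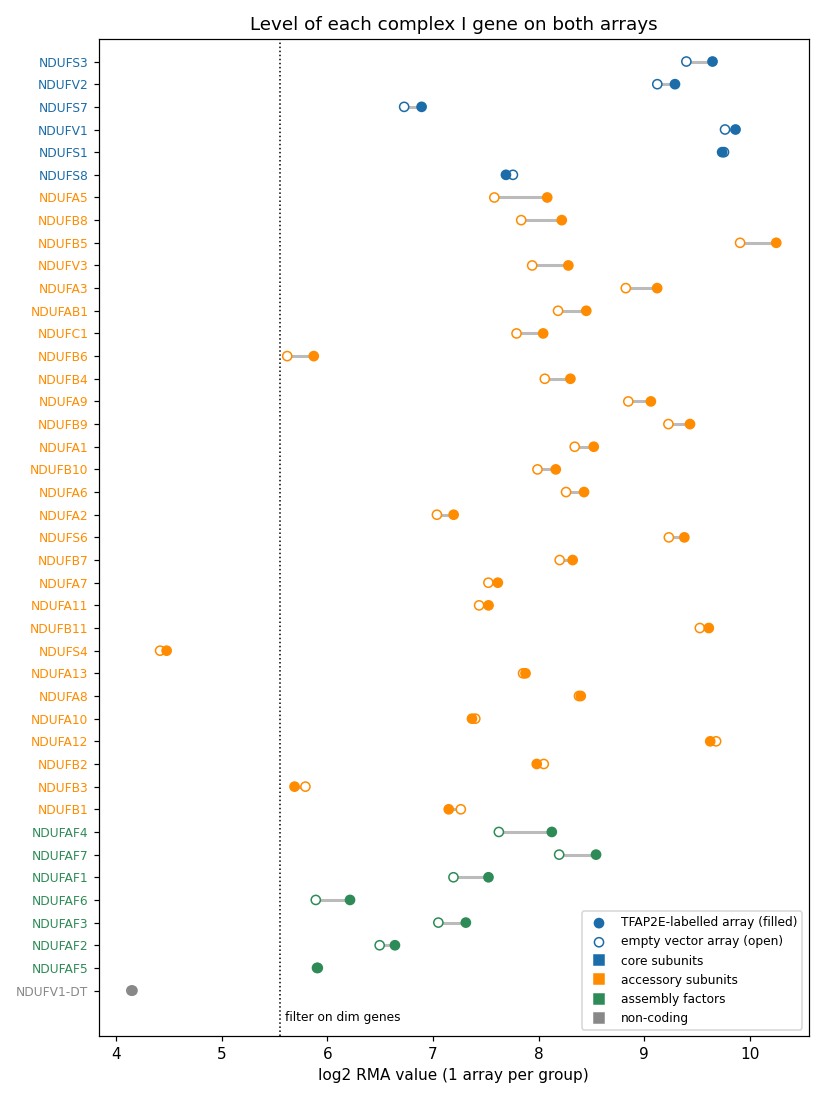
Log2 RMA value (horizontal axis) of each of the 42 complex I genes on the TFAP2E-labelled array (filled circles) and the empty vector array (open circles), in order of their difference within core, accessory, assembly and non-coding genes. In 34 genes, the dim NDUFS4 and NDUFV1-DT included, the filled circle lies to the right, and the gaps stay below 1.5-fold. Levels of different genes come from different probes and have no common order.

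The core subunits had the smallest median of the 3 classes. All 6 were measured, 4 read above 0 and 2 below, and their median was 0.13, with none past 1.2-fold. Over all measured genes the shares were 59.2% above 0, 12.8% past 1.2-fold higher and 6.05% lower. NDUFS3, a Q module subunit, read 9.65 in TFAP2E-labelled cells and 9.40 in empty vector cells, a difference of 0.25 (1.19-fold). It had the highest difference of the core genes.

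NDUFV2, an iron-sulfur subunit of the N module, read 9.29 and 9.12, a difference of 0.17. NDUFS7, which carries the last iron-sulfur cluster before ubiquinone, was at 6.89 against 6.73, also 0.17 apart. NDUFV1, the subunit that binds NADH and the flavin, read 9.86 against 9.77, a difference of 0.10. These 3 lay above the median of all genes by less than the probe set error.

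NDUFS1, the large iron-sulfur protein of the N module, gave nearly equal values of 9.74 in TFAP2E-labelled cells and 9.76 in empty vector cells. NDUFS8, an iron-sulfur protein of the Q module, read 7.69 against 7.76, a difference of -0.07. It was the lowest of the core genes. Electron-carrying subunits were thus found on both sides of 0, but NDUFS1 and NDUFS8 lay within the probe set error of 0.

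Of the 28 accessory subunit genes 27 were measured, 22 of them above 0 and 5 below, with a median of 0.17. At the 1.2-fold size 6 of the 27 (22.2%) read higher and 0 lower, against 12.8% and 6.05% of all measured genes. The share of all measured genes above 0 was 59.2%. NDUFA5, an accessory subunit of the Q module, read 8.08 in TFAP2E-labelled cells and 7.58 in empty vector cells, 1.42-fold higher (0.50). NDUFB8, of the distal membrane arm, was at 8.22 against 7.83, 1.31-fold higher (0.38). Of measured genes 98.0% lay below NDUFA5 and 95.2% below NDUFB8.

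NDUFV3, a small subunit bound to the flavoprotein part of the N module, read 8.28 against 7.94 (0.34, 1.27-fold). NDUFB5, of the distal membrane arm, read 10.3 against 9.91, likewise 0.34 apart. NDUFA3, of the proximal membrane arm, read 9.12 against 8.83, a difference of 0.30. NDUFAB1 is the mitochondrial acyl carrier protein, which also serves fatty acid synthesis and iron-sulfur cluster assembly. Its values were 8.45 in TFAP2E-labelled cells and 8.18 in empty vector cells, a difference of 0.27.

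At the other end, NDUFB1 of the distal membrane arm read 7.15 in TFAP2E-labelled cells and 7.26 in empty vector cells, a difference of -0.11. It was the lowest of all members, at 1.08-fold lower. NDUFB3 was at 5.69 against 5.79 (-0.10) and NDUFB2 at 7.98 against 8.05 (-0.07), both of the distal membrane arm. All 3 lay within the probe set error of 0.

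NDUFA12, of the N module, read 9.63 against 9.68 (-0.06). NDUFA10, of the proximal membrane arm, read 7.37 against 7.40 (-0.03). NDUFA8, which lies on the intermembrane side of the proximal arm, read 8.40 against 8.38 (0.02) and completes the lowest 6. The other 15 measured accessory genes lay between 0.02 for NDUFA13, also known as GRIM-19, and 0.25 for NDUFC1.

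NDUFS4, an accessory subunit of the N module, was dim, at 4.48 in TFAP2E-labelled cells and 4.42 in empty vector cells. Its second probe set read 3.69 and 3.80, so that the 2 probe sets differed in sign. NDUFV1-DT was dim as well, at 4.15 against 4.14. Neither enters the counts of measured members. NDUFB4 had 2 probe sets with identical values, 8.30 against 8.06 (0.24), so that this pair is not an independent repeat. Those of NDUFV2 read 9.29 against 9.12 and 9.22 against 9.05, and both gave 0.17. Whether the NDUFV2 probe sets are independent of each other was not tested.

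The assembly factors had the highest median of the 3 classes, 0.32, which is 1.25-fold. With the median of its 20 nearest measured neighbours on the chromosome subtracted from each gene, it was 0.18. The medians found the same way were 0.10 for core and 0.12 for accessory genes. All 7 assembly factors were measured, 6 read above 0 and 4 (57.1%) passed 1.2-fold higher, against 59.2% and 12.8% of all measured genes. NDUFAF4 and NDUFAF3 act together early in the assembly of the Q module. NDUFAF4 read 8.12 in TFAP2E-labelled cells and 7.62 in empty vector cells, 1.42-fold higher (0.50), and was the highest of all members. NDUFAF3 read 7.31 against 7.05, a difference of 0.26.

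NDUFAF7, a methyltransferase needed for complex I assembly, was at 8.54 against 8.19 (0.35). NDUFAF1, part of the assembly complex for the membrane arm known as MCIA, was at 7.52 against 7.19 (0.33). NDUFAF6, which acts early in assembly, was at 6.21 against 5.89 (0.32). All 3 passed the 1.2-fold size.

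NDUFAF2 is a late assembly factor and a paralogue of NDUFA12. Its brighter probe set read 6.64 against 6.49 (0.14), and its other one 6.59 against 6.38 (0.21). NDUFAF5, which hydroxylates NDUFS7, read 5.90 against 5.91, a difference of -0.0072. Assembly factors thus ran from no difference to 0.50, and their range overlapped that of the core genes, which ended at 0.25. The difference between the classes, of 6, 27 and 7 genes, was not tested.

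**Figure D2:**
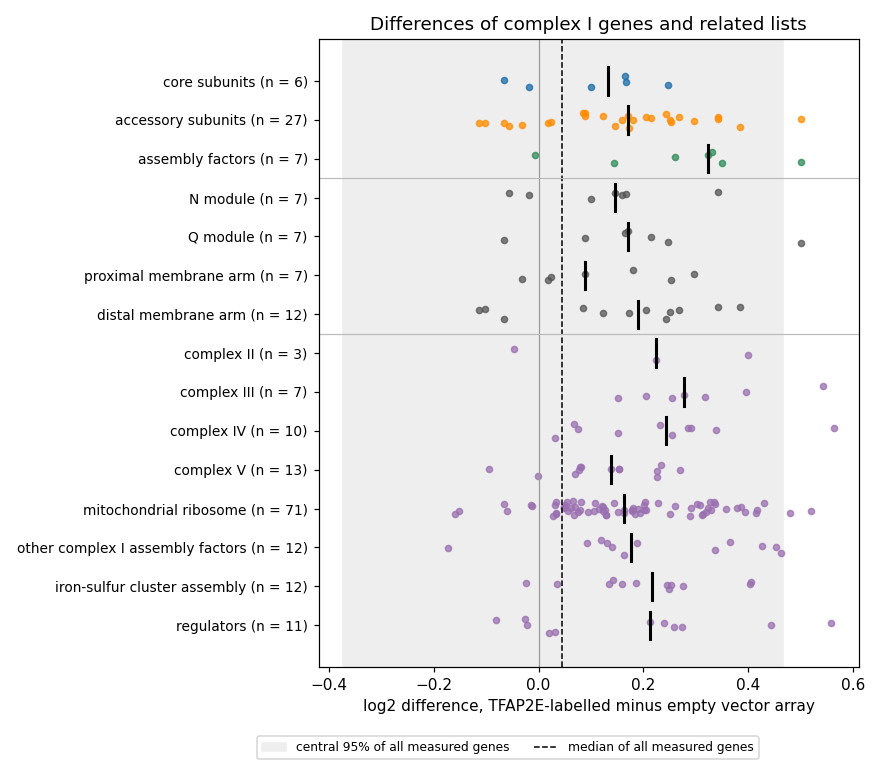
Log2 difference, TFAP2E-labelled minus empty vector array (horizontal axis), of each measured gene (points) by class and module of complex I and in related lists, with the median of each group as a black bar. The grey band holds the central 95% of all measured genes and the dashed line is their median of 0.04. Every group median lies to the right of that line, from 0.09 for the proximal membrane arm to 0.32 for the assembly factors.

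Grouped by position in the enzyme, all modules had a positive median. The median difference was 0.15 for 7 measured genes of the N module, 0.17 for 7 of the Q module, 0.09 for 7 of the proximal membrane arm and 0.19 for 12 of the distal membrane arm. Each module held genes on both sides of 0, and those below 0 lay within the probe set error of 0. The distal arm held both NDUFB8 and NDUFB5, among the highest, and NDUFB1, NDUFB3 and NDUFB2, the 3 lowest members.

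A further 12 assembly factors of complex I without an NDUFAF name were all measured. Of these 11 read above 0, against 59.2% of all measured genes, and 5 passed 1.2-fold higher, against 12.8%, with a median of 0.18. The MCIA partners of NDUFAF1 were among them. TIMMDC1 read 9.69 in TFAP2E-labelled cells and 9.23 in empty vector cells (0.46), TMEM126B 6.91 against 6.46 (0.45) and COA1 10.1 against 9.67 (0.43). ACAD9 (0.19), ECSIT (0.14) and TMEM186 (0.12), of the same complex, differed less. FOXRED1 was the only one of the 12 below 0, at 6.74 against 6.92 (-0.17). These 12 genes were not set against their chromosomal neighbours, as the members were.

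Complexes II to V, which complete the respiratory chain and the ATP synthase, showed a shift of similar size. Of 33 measured genes 30 read above 0, against 59.2% of all measured genes, and 10 passed 1.2-fold higher, against 12.8%, with a median of 0.22. One of the 10, UQCRH, at 5.77 against 5.23, passed the filter only through the TFAP2E-labelled array. The measured genes of complexes II to V ran from ATP5F1D at -0.10 to COX6C at 0.56. COXFA4, known earlier as NDUFA4 and not counted in these lists, read 7.99 in TFAP2E-labelled cells and 7.41 in empty vector cells, a difference of 0.58 and larger than that of any complex I member. COXFA4L2 read 5.71 against 5.68, a difference of 0.03. The medians were 0.22 for 3 genes of complex II, 0.28 for 7 of complex III, 0.24 for 10 of complex IV and 0.14 for 13 of complex V. Mitochondrial ribosomal proteins had a median of 0.16 over 71 measured genes, of which 65 read above 0, from MRPL52 at -0.16 to MRPL47 at 0.52. The complex I median of 0.17 lay within the range of these related lists, 0.14 to 0.28, and the differences between lists were not tested. The genes of these lists and COXFA4 were not set against their chromosomal neighbours.

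Iron-sulfur cluster assembly genes, whose products supply complex I with its clusters, had a median of 0.22 over 12 measured genes, with 11 above 0. The share of all measured genes above 0 was 59.2%. BOLA3 was highest, at 9.89 in TFAP2E-labelled cells and 9.49 in empty vector cells (0.41), and HSCB lowest at -0.02. Among 12 regulators of mitochondrial gene expression the 11 measured had a median of 0.21, 8 of them above 0, against the same 59.2%. TFB2M, a mitochondrial transcription factor, read 7.68 against 7.12 (0.56) and GABPB1, the partner of GABPA, 8.01 against 7.56 (0.44). The nuclear receptor ESRRA differed by 0.27, POLRMT, the mitochondrial RNA polymerase, by 0.26, the DNA-packaging factor TFAM by 0.24 and the coactivator PPARGC1B by 0.21.

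The other regulators stayed near 0. NRF1 itself differed by -0.02, GABPA by 0.02, PPRC1 by 0.03, NFE2L1 by -0.03 and YY1 by -0.08. PPARGC1A, the coactivator PGC-1 alpha, was dim on both arrays, at 5.26 against 4.87.

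**Figure D3:**
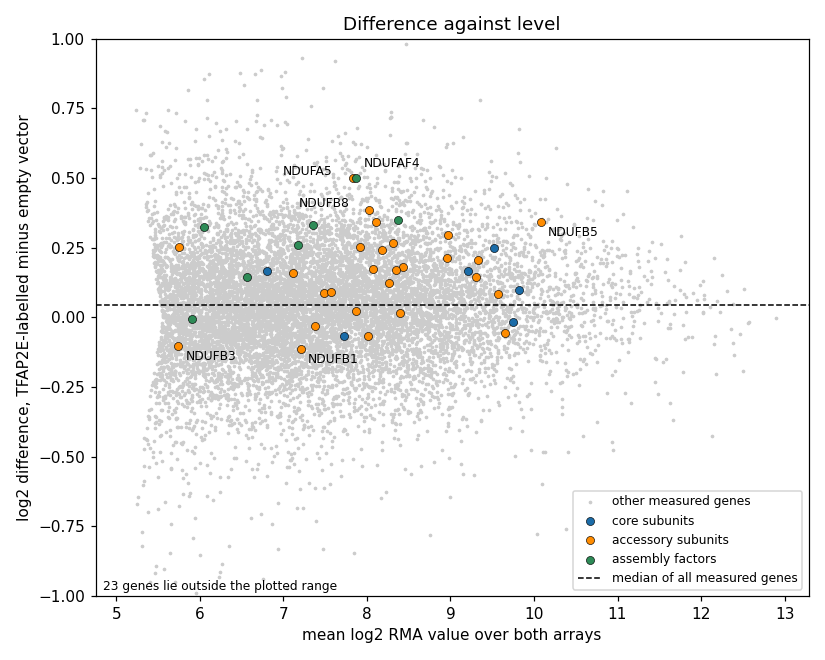
Log2 difference, TFAP2E-labelled minus empty vector array (vertical axis), against the mean log2 RMA value over both arrays (horizontal axis), for all measured genes (grey) and the complex I members (coloured by class), with 23 genes outside the plotted range. Complex I members lie inside the cloud of other genes at all levels, mostly above the dashed median of 0.04.

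The level on the array did not order the members. Across the 40 measured members the difference and the mean log2 level had a Pearson correlation of 0.08 and a Spearman correlation of 0.09, and across all 11548 measured genes Spearman's was 0.07. These are correlations across genes of the same 2 arrays, and genes are not independent replicates. All 40 lay above the filter of 5.55 on both arrays. Of these, 29 had a mean over both arrays of at least 7.44, the 75th percentile over the table, a filter added after the data were seen. Their median was 0.17, beside 0.06 for the 5476 genes that passed it. At that filter 8 of the 29 members read at least 1.2-fold higher, against 13.3% of all genes, and 0 read lower, against 4.80%.

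Genes along some chromosome stretches differed together between the arrays. For each measured member the 10 nearest measured genes on each side were therefore taken from the RefSeq gene order, other members left out. The medians of these neighbours ran from -0.04 to 0.36. They were 0.36 around NDUFB4, 0.27 around NDUFA5, and 0.22 around both NDUFB5 and NDUFAF6, while around the other 36 members they stayed below 0.2. NDUFA5 read 0.23 above its neighbours and NDUFB4 0.11 below its own (-0.11). Around NDUFAF4 the neighbours' median was 0.08, and around NDUFB8 it was 0.03.

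With the neighbours' median subtracted, the members had a median of 0.12, with 29 of 40 above their neighbours and 11 below. The class medians became 0.10 for core, 0.12 for accessory and 0.18 for assembly genes. Past the 1.2-fold size stayed 5 rather than 10 members. Neighbours were not subtracted from genes other than the members, so these counts have no share of all genes beside them. Without the 4 members among high neighbours, the median of the other 36 was 0.16. What part these chromosome stretches have in the members' differences was not tested.

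**Figure D4:**
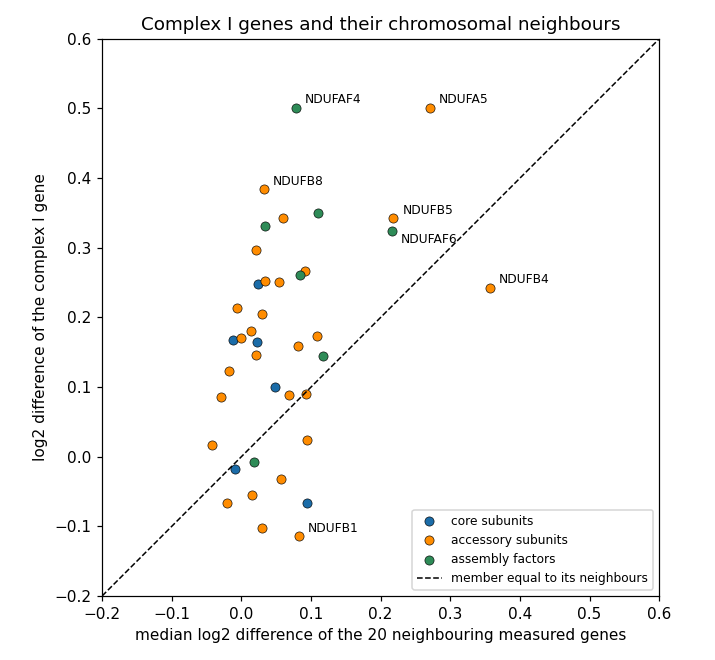
Log2 difference of each of the 40 measured complex I genes (vertical axis) against the median log2 difference of its 20 neighbouring measured genes (horizontal axis), both as TFAP2E-labelled minus empty vector array. Points above the dashed line, 29 of 40, read higher than their neighbours, and 4 genes sit among neighbours with a median of 0.2 or more.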

How the data were processed

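The authors deposited log2 expression values per probe set made with RMA, per the submitters' processing notes. The RMA version and the genome build were not given in the sources used here. The table held 33297 probe sets, of which 19460 had 1 symbol in the platform annotation, 1754 several and 12083 none. Symbols were updated by Entrez identifier in RefSeq (GRCh38.p14), which held 19429 of the 19460. The brightest probe set stood for a gene, and 11548 of 18417 genes passed the filter at 5.55.

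With 1 array per group, differences were read against a fixed size of 1.2-fold and the same share over all measured genes. The number of arrays limits the precision. Calculations used Python 3.11.15, pandas 2.3.3 and statsmodels 0.14.6, and were tested on simulated data. Alternatives were 3 scalings, 2 filters, the mean of probe sets, and other fold sizes. The comparison with neighbouring genes and a filter on the mean level were added after the data were seen. Members and lists were chosen with earlier results of these data known. All members may be named. Given in full are core and assembly genes, the 6 highest and lowest accessory genes, genes past 1.2-fold, and genes that were dim or had several probe sets. Of the lists, the highest and lowest genes are named, all regulators, and others, such as the MCIA partners, after their values were seen. Marker lists served only as a check of the cells.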

Additional observations from a re-analysis of the deposited data

How the results depend on the processing

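Each of the 120 values of single members under the 3 other scalings shifted by at most 0.06, against a standard deviation of 0.219 over all genes. The median of all measured members stayed between 0.12 and 0.19 under every alternative run, the added ones included, while that of all genes moved most without the loess trend, where it fell by 0.0347. Of the class medians only that of the 6 core genes moved by over 1.5 times with a scaling, to 0.082 with quantile normalization and to 0.082 without the loess trend. There 30 of 40 members read above 0, and 54.1% and 52.1% of all genes did. The count of 10 members at least 1.2-fold higher was 15 with centring on the median and 8 with either of those 2 scalings, while the share of all genes at that size was 15.5% with centring, 10.5% after quantile normalization and 9.88% once the loess trend was taken out. It was 25 at 1.1-fold, 0 at 1.5-fold and 0 at 2-fold, as follows from the size set, and 0 members read lower at any of these sizes. With the neighbours' median subtracted it was 5, and the class medians were 0.10 (core), 0.12 (accessory) and 0.18 (assembly). No share of all genes was computed for that step. No paired analysis was possible because there is a single array in each group. The number of arrays limits what can be read from any single gene.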
